A study of Mus musculus with 64 samples.

Results

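Cd34, Zfp503, Pag1, Slc4a4, Tnfrsf11a, Slc9a7, Nipsnap1, Gstt1, Gstt3 and Tpd52l1 are 10 of the 39017 genes counted in 8 mouse pancreatic tumor lines. They were chosen by their levels in mono-culture, which part 3 clones of group 1 (E, H and V) from 4 clones of group 2 (K, M, N and T), so the mono-culture difference between the groups is described here and not tested. In mono-culture 7 of the 10 were lower in group 1 and 3 were higher, namely Slc4a4, Slc9a7 and Nipsnap1. Each symbol stood for 1 gene identifier, and all 10 genes passed the filter on low counts in each comparison, several of them through the group in which they were high.

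The study's results describe the 7 clones as subcloned from 1 polyclonal line of a KPC mouse pancreatic tumor. On that account they are separate clones and not separate animals. The study's methods call the clones previously described and speak of tumors and mice in the plural. The genotype of the clones includes Trp53+/R172H and Pdx1-Cre, so that Cre is driven by the Pdx1 promoter of the pancreatic lineage. The strain is given as C57BL/6 mixed, and the study placed clones in group 1 or group 2 by their metabolism. The study's 2 groups do not include the KPC1 line, which is therefore placed in neither here. The genotype of KPC1 is not given in the sources used here. There were 64 libraries, 4 per line for mono-culture and 4 per line for co-culture, in which the tumor cells spent 48 h with fibroblasts and were then isolated through their GFP by FACS.

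The library totals were between 11178721 and 21333683 counts. Each of the 64 libraries correlated best with another library of its own line and culture, the lowest such r over genes being 0.973. The labels do not say whether the 4 libraries came from separate cultures, so p-values measure the spread among these libraries or clones, which may be partly technical. By the numbers in their labels, the samples form a series of 43 and a series of 21, and all 4 mono-culture libraries of clone K were in the second. In mono-culture 11 group 1 libraries were in the first series and 1 in the second, against 9 and 7 of group 2. Series and group are thus partly confounded there. Of 12 ductal and epithelial markers, Krt8, Krt18, Krt19, Sox9 and Pdx1 were at least 36.6 CPM in every line in mono-culture, whereas Epcam reached at most 0.369 CPM and Cldn4 at most 0.838 CPM in any line. Cdh1 ran from 0.992 to 301 CPM between the lines. Levels are given as CPM, the counts of a gene relative to the library total after edgeR's TMM normalization, unless another unit is named.

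The 10 genes have different roles. Cd34 encodes a sialomucin known from blood progenitors and vessel lining, Tnfrsf11a encodes RANK, the receptor of the cytokine RANKL, and Pag1 encodes a membrane adaptor that brings the kinase Csk to Src family kinases and so restrains them. Zfp503 is a zinc finger repressor of transcription of the NET family. Slc4a4 is the electrogenic sodium bicarbonate cotransporter through which pancreatic duct cells take up bicarbonate, and Slc9a7 is a sodium-proton exchanger of the Golgi. Nipsnap1 is a mitochondrial protein that takes part in the removal of damaged mitochondria. Gstt1 and Gstt3 are theta-class glutathione transferases, which couple glutathione to electrophiles, and Tpd52l1 belongs to the tumor protein D52 family of vesicle traffic proteins.

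The genes are spread over the genome, apart from 1 adjacent pair, with positions given on GRCm38 from GENCODE M21. Cd34 (chr1:194938819-194961279, plus strand) and Tnfrsf11a (chr1:105780718-105847981, plus) are on chromosome 1, Pag1 is at chr3:9687479-9833679 (minus) and Slc4a4 at chr5:88886818-89239653 (plus). Gstt1 (chr10:75783813-75798584, minus) and Gstt3 (chr10:75774115-75781414, minus) are adjacent on chromosome 10, with 2.4 kb between them and no gene in that gap. Tpd52l1 (chr10:31332376-31445958, minus) lies on the same chromosome. Nipsnap1 is at chr11:4873951-4894200 (plus), Zfp503 at chr14:21983959-21989601 (minus) and Slc9a7 at chrX:20105754-20291807 (minus).

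Promoter windows of 300 bases, from 250 before to 50 after a start, were taken from RefSeq on GRCm38.p6 for 9 of the 10 genes, 11 windows in all. None was given for Pag1. The windows shown are those of Cd34 and Zfp503, which had the widest gaps between the groups, of the adjacent pair Gstt1 and Gstt3, and of Slc4a4, which was higher in the other group. Capitals mark the CpG dinucleotides, and each is written 5′ to 3′ on the strand of the gene.
Cd34, chr1:194938571-194938870: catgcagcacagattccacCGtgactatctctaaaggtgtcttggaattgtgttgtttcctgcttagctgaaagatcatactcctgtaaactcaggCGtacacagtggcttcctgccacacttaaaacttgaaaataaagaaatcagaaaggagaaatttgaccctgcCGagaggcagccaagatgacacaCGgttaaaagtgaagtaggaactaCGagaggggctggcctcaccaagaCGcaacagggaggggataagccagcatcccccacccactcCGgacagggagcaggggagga
Zfp503, chr14:21989552-21989851: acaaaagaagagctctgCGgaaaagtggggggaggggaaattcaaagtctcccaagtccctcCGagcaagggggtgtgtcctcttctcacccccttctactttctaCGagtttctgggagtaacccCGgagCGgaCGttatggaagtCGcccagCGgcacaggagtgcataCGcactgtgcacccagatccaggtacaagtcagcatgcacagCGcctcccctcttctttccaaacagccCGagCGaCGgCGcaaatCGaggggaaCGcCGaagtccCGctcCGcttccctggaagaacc
Gstt1, chr10:75797682-75797981: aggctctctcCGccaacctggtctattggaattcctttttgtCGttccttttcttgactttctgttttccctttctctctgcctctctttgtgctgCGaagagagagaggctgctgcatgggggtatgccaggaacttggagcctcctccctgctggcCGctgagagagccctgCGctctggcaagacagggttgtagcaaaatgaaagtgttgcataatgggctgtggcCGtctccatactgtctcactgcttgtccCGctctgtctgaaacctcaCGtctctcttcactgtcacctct
Gstt3, chr10:75781365-75781664: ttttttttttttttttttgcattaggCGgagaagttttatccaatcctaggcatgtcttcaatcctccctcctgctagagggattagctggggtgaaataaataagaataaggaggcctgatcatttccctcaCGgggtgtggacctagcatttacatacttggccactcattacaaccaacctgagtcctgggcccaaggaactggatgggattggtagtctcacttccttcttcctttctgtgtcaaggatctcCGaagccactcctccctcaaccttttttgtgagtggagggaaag
Slc4a4, chr5:88887010-88887309: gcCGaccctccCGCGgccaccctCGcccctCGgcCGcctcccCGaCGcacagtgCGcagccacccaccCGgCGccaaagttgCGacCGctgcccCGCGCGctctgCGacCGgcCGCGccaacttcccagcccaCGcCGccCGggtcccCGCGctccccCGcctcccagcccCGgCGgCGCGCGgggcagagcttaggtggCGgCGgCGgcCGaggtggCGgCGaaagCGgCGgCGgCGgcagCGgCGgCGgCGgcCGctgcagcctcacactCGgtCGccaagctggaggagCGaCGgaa
The windows had little in common. The Slc4a4 window held 50 CpGs, an observed over expected CpG ratio of 1.06, above 96.7% of the 32851 windows in the table, and the second Slc4a4 start had 3 CpGs and a ratio of 0.181. Zfp503 had 19 CpGs (0.747), Cd34 7 (0.374), Gstt1 8 (0.383) and Gstt3 3 (0.192), against a median ratio of 0.384 over all windows. Searched on both strands, CCAAT was found in 5 of the 11 windows (37.4% of all windows), GGGCGG in 4 (35.7%) and TATAAA in 1, that of Nipsnap1 (13.6%). CACGTG and TGANTCA were found in 0 of the 11, against 7.2% and 7.8% of all windows.

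Cd34 and Zfp503 had the widest margins in mono-culture. Cd34 lay between 0 and 0.499 CPM (median 0.288) in the 12 libraries of group 1 and between 13.8 and 73.8 (median 41.6) in the 16 of group 2. Zfp503 lay between 0 and 0.153 CPM (median 0.0574) in group 1, with no count in 5 of 12 libraries, and between 6.52 and 163 (median 47.2) in group 2. No library of one group reached the range of the other for either gene. The lowest clone of group 2 was 48.7 times the highest of group 1 for Cd34 and 93.3 times for Zfp503. Summed over 4 libraries, group 1 clones held 9, 19 and 26 counts of Cd34 in E, H and V, and 3, 4 and 6 counts of Zfp503, so the Zfp503 level of clone E stands at the floor of 3 counts (0.0438 CPM) and has a 95% exact Poisson interval from 0.00903 to 0.128 CPM. Such intervals cover counting error only.

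**Figure D1:**
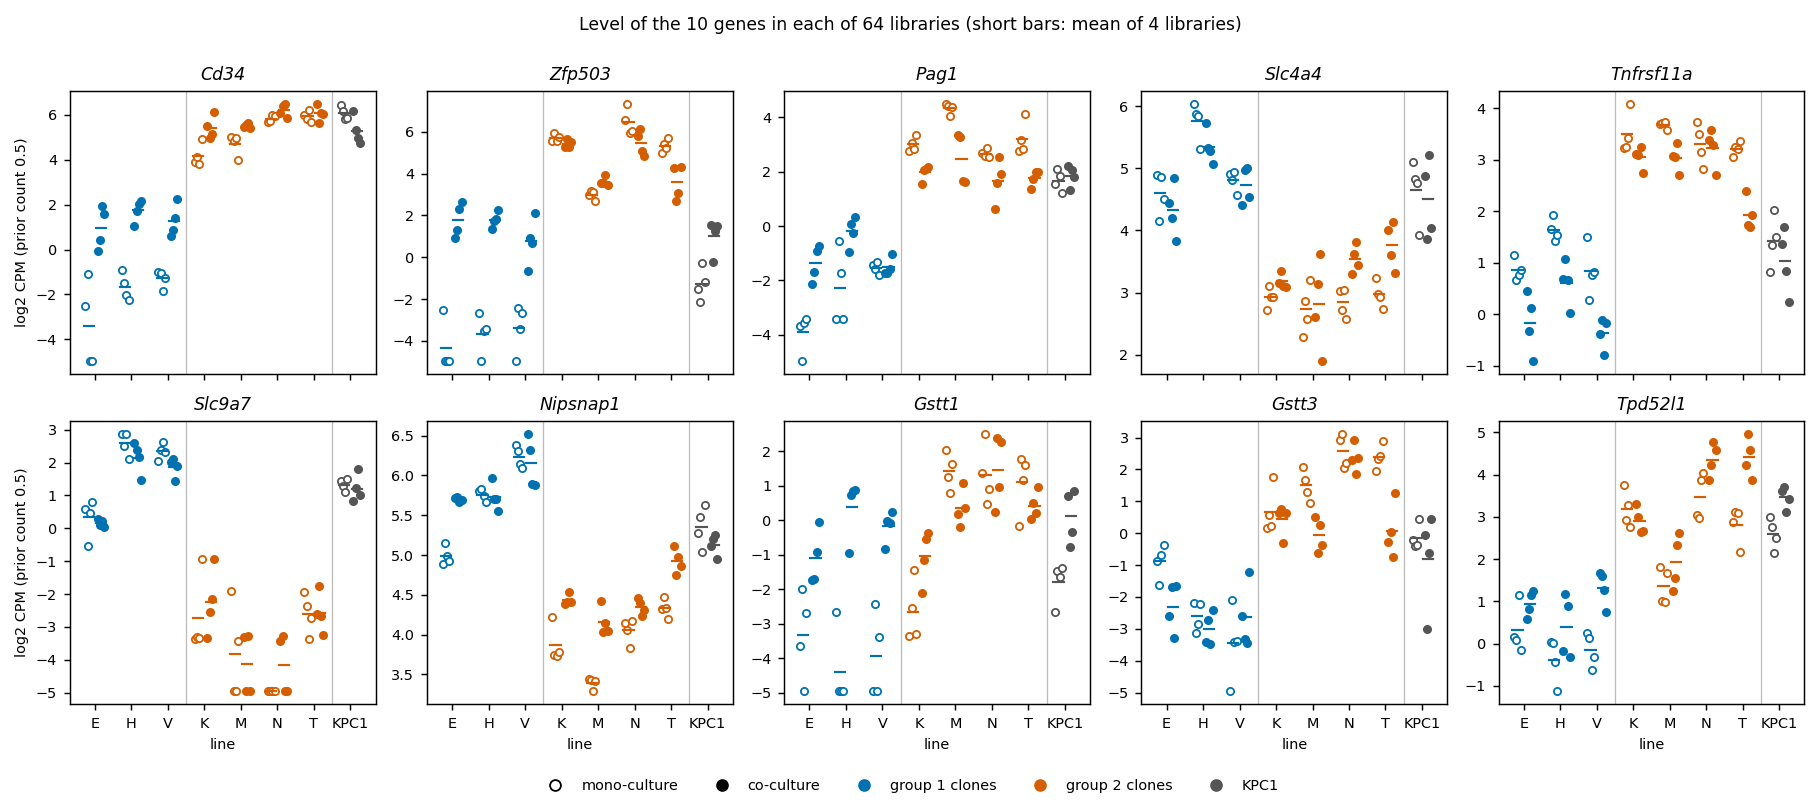
Level of each of the 10 genes in 64 libraries on a log2 CPM scale (prior count 0.5), by line, with open points for mono-culture, filled points for co-culture, colors for group 1, group 2 and KPC1, and short bars for the mean of 4 libraries. The Cd34 and Zfp503 points of E, H and V sit far below those of K, M, N and T in mono-culture and rise in co-culture, and KPC1 sits with group 2 for Cd34 and below group 2 for Zfp503.

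The 4 clones of group 2 were not alike. Cd34 was 61.6 ± 9.91 CPM (SD, n = 4 libraries) in T, 57.1 ± 6.16 in N, 27.1 ± 7.81 in M and 19.04 ± 7.38 in K. K and M overlapped, as did N and T, and the pairs stood apart from each other. Zfp503 was 7.98 ± 1.07 CPM in M, 41.2 ± 8.92 in T, 52.6 ± 6.98 in K and 95.9 ± 47.1 in N. Clone M was below every library of the other 3 clones. Per length of transcript, in the authors' RPKM, the group 2 mean in mono-culture was 11.2 ± 8.65 (SD, n = 4 clones) for Zfp503 and 5.61 ± 3.05 for Cd34.

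Pag1, the Src family adaptor, and Tnfrsf11a, the RANKL receptor, were also lower in group 1. Pag1 lay between 0 and 0.657 CPM (median 0.159) in the 12 mono-culture libraries of group 1 and between 5.83 and 22.7 (median 7.78) in those of group 2, with the clone means 19.99-fold apart at their nearest. Clone M was the highest at 20.3 ± 2.66 CPM. Tnfrsf11a lay between 1.17 and 3.78 CPM (median 1.98) in group 1 and between 7.04 and 16.99 (median 10.4) in group 2, so it was expressed in both. Its 4 group 2 clones, from 9.28 CPM in T to 12.8 in M, overlapped with their neighbors in order.

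The 3 genes higher in group 1 were the transporters Slc4a4 and Slc9a7 and the mitochondrial gene Nipsnap1. Slc4a4 lay between 17.8 and 66.0 CPM (median 29.9) in group 1 and between 4.82 and 9.38 (median 7.57) in group 2. The 4 group 2 clones were close together, from 6.80 to 7.86 CPM, and clone H of group 1 was highest at 55.5 ± 11.1 CPM. Slc9a7 lay between 0.662 and 7.30 CPM (median 4.62) in group 1 and between 0 and 0.487 (median 0.0649) in group 2, where no clone had more than 10 counts and clone N had 0 counts, which allows up to 0.0588 CPM. Clone E, at 1.30 ± 0.453 CPM, was well below H (6.11 ± 1.45) and V (5.12 ± 0.8289). Nipsnap1 lay between 29.7 and 83.3 CPM in group 1 and between 9.73 and 22.2 in group 2, a margin of 1.57-fold between the nearest clones. Clones E, H and V followed each other at 31.7 ± 2.56, 54.2 ± 2.62 and 75.3 ± 7.25 CPM without overlap.

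The transferases and Tpd52l1 were also lower in group 1, with the nearest clones 1.55-fold apart for Gstt1, 2.05-fold for Tpd52l1 and 3.28-fold for Gstt3. Gstt3 lay between 0 and 0.739 CPM in group 1 and between 1.10 and 8.64 in group 2. Gstt1 lay between 0 and 0.221 CPM in group 1, with no count in 6 of 12 libraries, and between 0.0645 and 5.64 in group 2. That overlap came from clone K, which held 9 counts of Gstt1 in 4 libraries (95% exact Poisson interval 0.0666 to 0.276 CPM) beside 6 counts in clone E (0.0321 to 0.191 CPM), while M, N and T had 2.37 to 2.85 CPM. Gstt1 thus parted the groups on clone means by counts whose intervals overlap. Tpd52l1 lay between 0.425 and 2.19 CPM in group 1 and between 1.96 and 16.3 in group 2, with its lowest group 2 clone, M, at 2.65 ± 0.788 CPM. Gstt1 and Gstt3 are paralogs. Their GENCODE transcripts share 0 stretches of 76 bases, the length of a read, and their longest common run is 35 bases, so exact read sharing was not seen, but how the authors' counting treated reads with mismatches is not given in the sources used here.

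Such a pattern is not rare among all genes. In mono-culture the clone means of the groups did not overlap with group 1 higher for 2.20% of 14829 tested genes and with group 1 lower for 3.32%, and those shares are the pool the 10 were taken from. No gene was called between the groups in mono-culture by edgeR at an adjusted p under 0.1 (0% of 14829, with 766 at an unadjusted p under 0.05). DESeq2 called 117 genes on the same sums.

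Co-culture gave libraries that had no part in choosing the genes, though they come from the same 7 clones. There 9 of the 10 genes still had clone means that did not overlap, in the mono-culture direction, against 4.01% of 14737 genes with group 1 higher and 4.95% with group 1 lower. Gstt1 was the exception. Since the genes were chosen on these 7 clones, neither this count nor the p-values that follow are an independent test of the group difference. The shares given are of all genes tested and not of genes already apart in mono-culture. By edgeR's quasi-likelihood test on sums per clone, 3 against 4, Cd34 was the 1 gene called among 14737 (0.00679%), and 9 of the 10 had an unadjusted p under 0.05, as had 1263 of all genes tested. Ranked by p over all genes, Cd34 was first, Tnfrsf11a 4th, Nipsnap1 5th, Pag1 7th, Slc9a7 8th and Zfp503 9th. Gstt3 was at rank 22, Slc4a4 at 25, Tpd52l1 at 36 and Gstt1 at 6278.

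Cd34 in co-culture lay between 0.930 and 4.73 CPM (median 2.80) in the 12 libraries of group 1 and between 30.8 and 90.7 (median 54.4) in the 16 of group 2. The groups did not overlap, and the nearest clones, H and K, were 13.05-fold apart against 48.7-fold for the nearest clones in mono-culture. Its log2 fold change, group 1 minus group 2, was −4.37 ± 0.31 (SE, edgeR adjusted p = 0.0118). The call was lost without clone V (edgeR adjusted p = 0.217), where the log2 fold change was −4.35, and kept without any other clone (at most 0.0957).

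The other 9 genes were not called by edgeR in co-culture. Zfp503 lay between 0.601 and 6.27 CPM (median 2.91) in group 1 and between 6.37 and 70.9 (median 24.2) in group 2, so its highest group 1 library lay just under its lowest group 2 library, and its log2 fold change was −3.18 ± 0.60 (edgeR adjusted p = 0.581). Tnfrsf11a lay between 0.499 and 2.05 CPM in group 1 and between 3.19 and 11.9 in group 2. For Pag1 the ranges were 0.199 to 1.24 and 1.51 to 10.1 CPM. The log2 fold changes were −2.81 ± 0.46 for Tnfrsf11a and −3.01 ± 0.51 for Pag1, both with an edgeR adjusted p of 0.581.

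Among the 3 genes higher in group 1, Slc9a7 stayed widest apart in co-culture, from 0.998 to 5.96 CPM against 0 to 0.490, with a log2 fold change of 4.77 ± 0.81. Nipsnap1 ran from 46.9 to 91.9 CPM against 16.4 to 34.5 (1.39 ± 0.23). Slc4a4 ran from 14.1 to 53.2 CPM against 3.69 to 17.6 (1.49 ± 0.31), so its libraries overlapped while its clone means did not. All 3 had an edgeR adjusted p of 0.581. Gstt3 (−3.78 ± 0.76) and Tpd52l1 (−2.81 ± 0.65) had the same adjusted p by edgeR. The libraries of Tpd52l1 also overlapped, at 0.774 to 3.14 CPM in group 1 and 2.34 to 31.1 in group 2. Gstt1, at 0.490 to 1.42 CPM over the group 1 clones and 0.501 to 3.27 over the group 2 clones, had a log2 fold change of −0.70 ± 0.63 (edgeR adjusted p = 0.709).

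**Figure D2:**
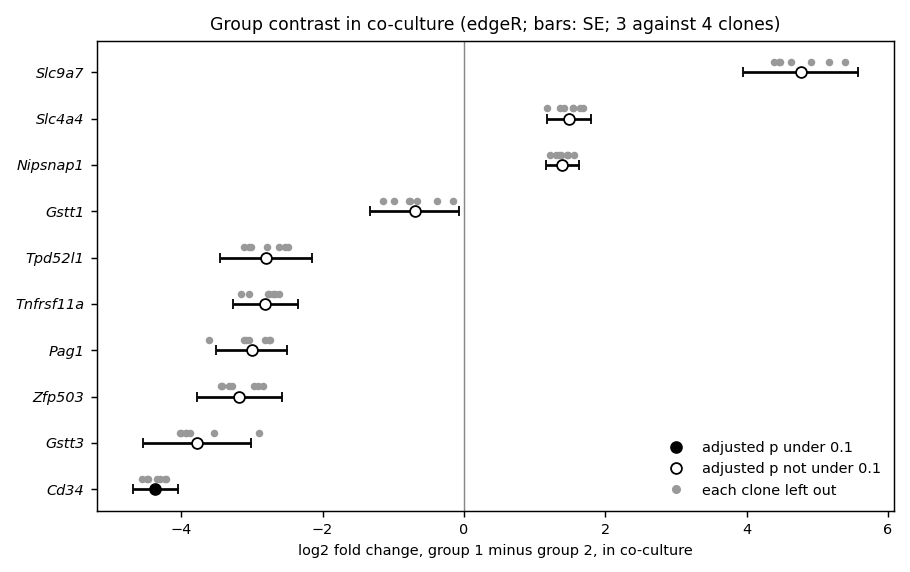
Log2 fold change between group 1 and group 2 in co-culture for each of the 10 genes, with the SE as bars (edgeR, 3 against 4 clones) and gray points for the estimate with each clone left out. Cd34, at −4.37, carries the filled point of a call at an adjusted p under 0.1, and Gstt1, at −0.70, lies nearest to 0.

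DESeq2, the tool named in the study's methods for the contrast of the groups, called 193 genes in co-culture on the same sums where edgeR called 1. With it 9 of the 10 genes passed, Gstt1 being the exception (DESeq2 adjusted p = 0.719), with log2 fold changes such as those of Zfp503 (−3.19) and Slc9a7 (4.79). Within the series of 43 sample numbers, 9 of the 10 had clone means apart in co-culture.

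KPC1, which was placed in neither group here, did not follow one group through the list. In mono-culture its clone mean lay within the range of group 1 for 4 genes, within that of group 2 for 2, between the ranges for 3 and above both for 1. It resembled group 1 for Slc4a4 (26.3 ± 8.08 CPM), Tnfrsf11a (2.76 ± 0.970), Slc9a7 (2.4995 ± 0.299) and Nipsnap1 (41.3 ± 7.26). For Tpd52l1 (6.15 ± 1.49) and Gstt1 (0.272 ± 0.1001) it fell in the group 2 range, which for Gstt1 reaches down to 0.151 CPM through clone K alone.

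Cd34 and Zfp503 went opposite ways in KPC1. Cd34 was 86.5, 71.9, 56.7 and 57.9 CPM in its 4 mono-culture libraries, the highest mean of the 8 lines, and overlapped with T, the next. Zfp503 was 0.318, 0.197, 0.799 and 0.406 CPM, above every group 1 library and far below clone M of group 2. Pag1, at 3.25 ± 0.855 CPM, and Gstt3, at 0.906 ± 0.289, were in between. In co-culture KPC1 was within group 1 for Zfp503, Slc4a4 and Slc9a7, within group 2 for Pag1 and Tpd52l1, within both ranges for Gstt1, and between the groups for Cd34, Tnfrsf11a, Nipsnap1 and Gstt3.

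The culture response, co-culture minus mono-culture, was tested over the 8 lines with the line as a covariate. It uses the mono-culture libraries that chose the genes, so a gene picked for extreme values in mono-culture is not an unbiased case of it. Of 14478 genes, 27.2% were called higher in co-culture and 27.4% lower by edgeR, and of the 10 genes 3 were called higher and 2 lower, a share close to that of all genes. Tnfrsf11a was lower in co-culture, with a log2 fold change of −0.76 ± 0.15 (edgeR adjusted p = 0.0041), with a log2 fold change below 0 in each of the 8 lines. Gstt3 was also lower (−0.81 ± 0.31, edgeR adjusted p = 0.0548). Tpd52l1 was higher (0.80 ± 0.20, edgeR adjusted p = 0.0096), as were Cd34 (1.18 ± 0.47, edgeR adjusted p = 0.0638) and Nipsnap1 (0.31 ± 0.13, edgeR adjusted p = 0.066). Zfp503 (1.27 ± 0.89), Gstt1 (1.30 ± 0.68), Pag1 (−0.30 ± 0.47), Slc9a7 (−0.20 ± 0.22) and Slc4a4 (0.13 ± 0.14) were not called.

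The calls of Cd34, Nipsnap1 and Gstt3 depend on single lines. Cd34 was no longer called without E, H, V or K (edgeR adjusted p 0.105 to 0.129), nor Nipsnap1 without E, K, M or T (0.121 to 0.152), nor Gstt3 without E, M or T (0.121 to 0.134). Gstt1 was called without M (edgeR adjusted p = 0.062) or T (0.0799). Tnfrsf11a and Tpd52l1 stayed called with any 1 line left out (edgeR adjusted p at most 0.0257).

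Within lines, 4 libraries against 4, edgeR called 43 of the 80 responses of the 10 genes. These tests too use the mono-culture libraries that chose the genes. A rise where a gene was picked as low, or a fall where it was picked as high, is therefore favored by the choice. In group 1 it called 7 genes in E, 6 in H and 5 in V, where 61.3%, 44% and 61.5% of 14134 genes were called. In group 2 it called 7 genes in T and 6 in M, where the shares of all genes were 62.2% and 38.9%, and 5 in N and 3 in K, where they were 37.4% and 20.5%. In KPC1 it called 4, and 39.2% of all genes.

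Cd34 and Zfp503 both rose in the 3 group 1 clones, and in no group 2 clone were both called higher. In E, Cd34 went from 0.146 ± 0.208 to 2.26 ± 1.36 CPM, in H from 0.307 ± 0.143 to 3.46 ± 1.04 and in V from 0.391 ± 0.104 to 2.65 ± 1.47. The log2 fold changes were 4.03 ± 0.66, 3.47 ± 0.53 and 2.73 ± 0.52, all called, and co- and mono-culture libraries did not overlap. Zfp503 rose in E to 3.85 ± 2.07 CPM, in H to 3.53 ± 0.932 and in V to 2.09 ± 1.59 (log2 fold changes 6.24 ± 0.77, 5.62 ± 0.75 and 4.42 ± 0.75), from the 3 to 6 counts per clone given above. The co-culture levels of both genes in group 1 stayed below every group 2 library.

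In group 2, Cd34 rose in K (1.25 ± 0.28) and M (0.75 ± 0.28), and was 0.37 ± 0.27 in N and 0.14 ± 0.27 in T, not called. In clone M the call was lost without replicate 2 or 4. Zfp503 fell in N, by 1.04 on the log2 scale (SE 0.31), and in T, by 1.63 (SE 0.32), where it went from 41.2 to 13.5 CPM. It was −0.27 ± 0.30 in K and 0.63 ± 0.33 in M, not called. In KPC1, Cd34 fell by 0.68 (SE 0.27, edgeR adjusted p = 0.0533) to 72.4, 39.6, 30.9 and 26.5 CPM, with 1 co-culture library inside the mono-culture range, while Zfp503 rose by a log2 fold change of 2.36 ± 0.56. The Cd34 call in KPC1 was lost when replicate 2, 3 or 4 was left out.

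**Figure D3:**
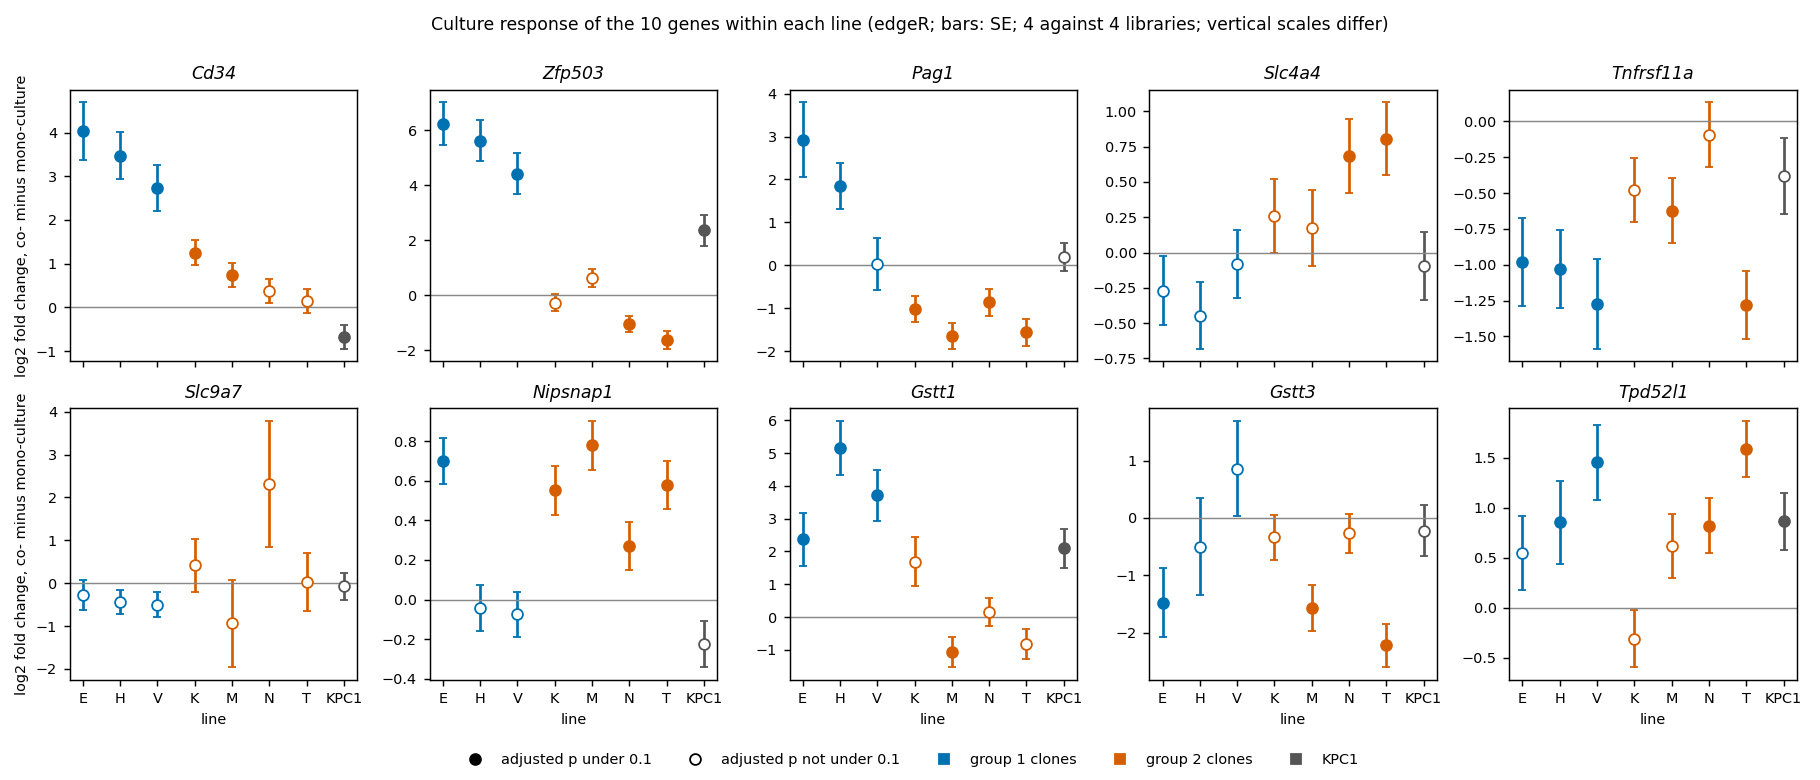
Log2 fold change, co-culture minus mono-culture, of each of the 10 genes in each of 8 lines, with the SE as bars (edgeR, 4 against 4 libraries), filled points for an adjusted p under 0.1 and colors for the groups. Cd34, Zfp503 and Gstt1 are highest in E, H and V, Pag1 lies above 0 there and below 0 in K, M, N and T, and Tnfrsf11a lies below 0 in all 8 lines. The mono-culture libraries used here also chose the genes.

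Pag1 rose in E (2.93 ± 0.86) and H (1.84 ± 0.54) from 3 and 15 counts, and was 0.03 ± 0.60 in V, while it fell in all 4 group 2 clones, by 0.87 on the log2 scale in N, 1.02 in K, 1.56 in T and 1.65 in M. In M it went from 20.3 ± 2.66 to 6.46 ± 3.93 CPM. The call in N was lost without replicate 1 or 2. Slc4a4, the bicarbonate cotransporter, was below 0 in each group 1 clone (−0.45 to −0.08, not called) and above 0 in each group 2 clone, with N (0.69 ± 0.26) and T (0.81 ± 0.26) called. The call in N was lost without replicate 2 or 3. Whether the responses of the groups differ was not tested for either gene.

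Tnfrsf11a fell in 5 lines, E, H, V, M and T, by 0.62 to 1.28 on the log2 scale. The largest falls were in V, from 1.84 ± 0.679 to 0.756 ± 0.155 CPM, and in T, from 9.28 ± 0.816 to 3.86 ± 0.921 CPM. Nipsnap1 rose in E (0.70 ± 0.12) and in each group 2 clone (0.27 to 0.78), with M going from 10.5 ± 0.522 to 18.01 ± 2.38 CPM. The Nipsnap1 call in N was lost without replicate 1, 2 or 3. Slc9a7 was called in no line, its co-culture levels in E, H and V being 1.09 ± 0.0883, 4.58 ± 1.37 and 3.67 ± 0.712 CPM.

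The adjacent transferases moved differently. Gstt1 rose in E, H, V and KPC1, to 0.490, 1.42, 0.885 and 1.17 CPM in mean, with log2 fold changes from 2.10 ± 0.59 in KPC1 to 5.16 ± 0.83 in H, and fell in M by 1.08 (SE 0.46). Gstt3 fell in E, M and T, by 1.48, 1.57 and 2.22 on the log2 scale, and rose in no line. In T it went from 5.36 ± 1.47 to 1.17 ± 0.809 CPM. The call of Gstt1 in E was lost without replicate 4, that of Gstt3 in E without replicate 1 or 3, and that of Gstt1 in M without any 1 of replicates 1, 2 and 4. Tpd52l1 rose in H, V, N, T and KPC1, by 0.82 to 1.59, and reached 22.04 ± 7.14 CPM in T from 7.24 ± 1.94. Its call in H was lost without replicate 2, 3 or 4, and that in N without replicate 2.

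Fibroblast transcripts were present in the sorted co-culture libraries and moved with some of these rises. In mono-culture, Thy1 and Lum had no count in any library, and Thy1, Postn, Fap and Dcn together reached at most 0.2 CPM. In co-culture those 4 markers summed to 14.6 to 105 CPM (median 63.05) in group 1, 26.2 to 154 (median 92.0) in group 2 and 27.5 to 94.4 in KPC1. Of 13 tested markers on the list of 15, 11 were called higher in co-culture and 0 lower, and the sum of the 15 ran from 97.1 to 149 CPM in group 1 mono-culture and from 237 to 1427 in co-culture. In bulk samples, fewer cells of a type and less RNA per cell cannot be told apart.

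Within group 1 clones in co-culture, libraries with more of the 4 markers also had more Cd34. In clone V, Cd34 was 1.47, 1.78, 2.61 and 4.73 CPM beside 14.6, 49.3, 59.7 and 105 CPM of the markers. In H it was 2.07, 3.26, 4.11 and 4.39 CPM beside 31.1, 66.4, 74.7 and 97.6, and in E 0.930, 1.32, 2.99 and 3.80 CPM beside 32.4, 52.2, 78.9 and 80.3. All 18 within-clone pairs of libraries had Cd34 and the markers in the same order, and 16 of 18 did for Zfp503, Gstt1 and Pag1. These pairs come from 12 libraries, 4 per clone, and are not independent. The marker sum rose with the replicate number from 1 to 4 in H and V, and from 1 to 3 in E. Marker level and replicate number thus cannot be told apart in H and V. In group 2 the same order held in 13 of 24 pairs for Cd34, 14 for Zfp503, 13 for Pag1 and 18 for Gstt1. In KPC1 it held in 2 of 6 pairs for Cd34, 5 for Zfp503, 4 for Pag1 and 6 for Gstt1. Per CPM of the markers, the mean rise of Zfp503 was 0.0294 CPM in KPC1 and 0.0351 to 0.0627 in group 1. That of Gstt1 was 0.0148 CPM in KPC1 and 0.00645 to 0.0206 in group 1. That of Pag1 was 0.00702 CPM in KPC1 and ran more widely in group 1, from 0.000128 to 0.00927. In V, Pag1 rose by only 0.0073 CPM, though all 6 of its pairs were in the same order.

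**Figure D4:**
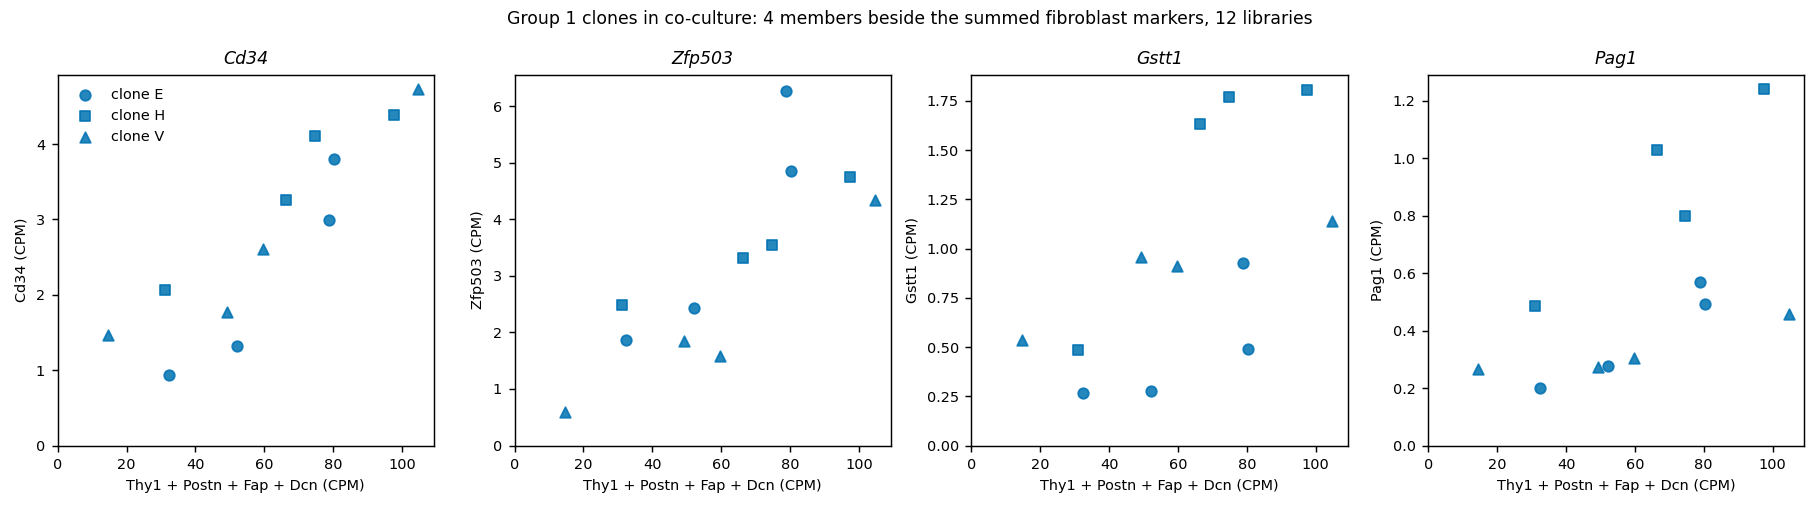
Level of Cd34, Zfp503, Gstt1 and Pag1 (CPM) against the summed level of Thy1, Postn, Fap and Dcn (CPM) in the 12 co-culture libraries of clones E, H and V. Libraries with a marker sum near 100 CPM hold more Cd34, 4.39 and 4.73 CPM, than the library with 14.6 CPM, at 1.47 CPM.

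Per CPM of the 4 markers, the mean rise of Cd34 was 0.0347 CPM in E, 0.0467 in H and 0.0395 in V. In CPM, Cd34 differed between cultures by 2.11 to 3.15 in group 1 clones, with mean marker sums of 57.1 to 67.4 CPM, and by 7.10 to 26.1 in group 2 clones, with mean marker sums of 71.5 to 98.01 CPM. In KPC1 it fell by 25.9 CPM beside a mean marker sum of 60.9 CPM. The part of fibroblast RNA in these rises was not tested. Endothelial and blood markers, relevant because Cd34 marks both lineages, were low. Cdh5, Tie1, Emcn, Erg, Robo4, Ptprc, Itgam and Lyz2 were at most 0.119 CPM in every line and culture, and Cd3e and Ms4a1 had no count in any library. Kdr, Vwf, Plvap, Egfl7 and Pecam1 reached 2.09 to 7.57 CPM at most in mono-culture, and Cd68 reached 18.5 CPM in mono-culture and 40.9 in co-culture. The 12 endothelial markers together ran from 4.31 to 18.1 CPM in group 1 and from 1.81 to 12.02 in group 2 in mono-culture, and the 14 blood markers from 2.51 to 18.95 and from 6.90 to 21.005. In co-culture the endothelial sums were 5.91 to 21.3 and 3.71 to 15.1 CPM, and the blood sums 14.8 to 58.3 and 9.37 to 57.03. Of the 14 blood markers, 13 had a mean under 1 CPM in every line in either culture, so the blood sums are mostly Cd68. Over the 8 lines 3 of 5 tested endothelial markers rose and 1 fell, the 1 tested blood marker, Cd68, rose, and of 10 tested ductal and epithelial markers 1 rose and 5 fell.

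Genes of the same families and pathways were read from 8 lists written by hand. Since edgeR called 0 genes between the groups in mono-culture and only Cd34 in co-culture, the count of 0 called non-members on these lists says nothing particular to them. At an unadjusted p under 0.05 there were 0 to 2 genes a list in mono-culture and 0 to 4 in co-culture, the 4 being among 16 tested genes of the Pag1, Csk and Src family list. The closest relatives of Gstt1 and Gstt3 were nearly silent, Gstt2 at no more than 0.0714 CPM and Gstt4 at no more than 0.0392 CPM in any line and culture, both named after their values were seen.

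The culture response of each list is given as counts and a median with no test, and is to be read beside the 27.2% of all genes called higher and the 27.4% called lower. Fibroblast transcripts were present in the sorted co-culture libraries, and their part in the responses of list genes was not tested. Of 17 tested glutathione transferase genes that are not members 10 fell and 2 rose, with a median log2 fold change of −0.58 against −0.000892 over all genes. Gsta1, an alpha-class enzyme, fell by 3.51 on the log2 scale (SE 0.71), Mgst2 by 1.02 (SE 0.20), Gstm7 by 0.94 (SE 0.20) and Mgst3 by 0.76 (SE 0.15). Among 17 bicarbonate and sodium-proton transport genes 7 rose and 5 fell (median 0.45). Slc4a8, another sodium-coupled bicarbonate transporter, rose by 4.67 (SE 0.65), from at most 0.214 CPM in any line to between 0.747 and 1.502, Slc9a5 by 0.82 (SE 0.15) and Slc26a6 by 0.78 (SE 0.18), and Slc4a3 fell by 1.67 (SE 0.35).

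RANK signaling had 7 of 24 genes higher and 4 lower in co-culture (median −0.03), and the share called higher was close to that of all genes. Traf1 rose by 0.95 (SE 0.11), and Fos fell by 1.61 (SE 0.29), Traf6, the adaptor that RANK binds, by 0.73 (SE 0.13) and Ikbkg by 0.51 (SE 0.07). Tnfsf11, which encodes RANKL and is named for that role, ran from 0.121 CPM in K to 9.75 in V in mono-culture and was not called between cultures (0.70 ± 0.39). In the list of Pag1, Csk and Src family kinases 5 of 15 rose, with Lat2 (0.86 ± 0.19) and Fyn (0.82 ± 0.18), and 4 fell, with Matk (−0.94 ± 0.18) and Ptpre (−0.43 ± 0.12). Of 12 partners and relatives of Zfp503, 7 fell and 2 rose. The falls included the Groucho corepressors Tle2 (−1.38 ± 0.28), Tle4 (−0.95 ± 0.16), Tle3 (−0.78 ± 0.15) and Tle1 (−0.74 ± 0.17).

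In the Nipsnap and mitophagy list 6 of 20 fell and 2 rose, with Pink1, the kinase that marks damaged mitochondria, at −0.65 ± 0.11, Gbas (Nipsnap2) at −0.26 ± 0.06, Map1lc3a at 0.25 ± 0.05 and Phb2 at 0.21 ± 0.06. In the Tpd52 list 2 of 8 fell, Map3k5 (−0.90 ± 0.14) and Mal (−0.77 ± 0.20), and 1 rose, Tpd52l2 (0.14 ± 0.06). In the list of the CD34 family and L-selectin ligands 1 of 5 fell, Crkl (−0.15 ± 0.04), and 0 rose.

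Genes next to the members were examined in mono-culture, 3 tested genes on each side, 54 different genes that are not members. Clone means of the groups did not overlap for 9 of the 54 (16.7%), against 5.52% of all tested genes. Adjacent genes are not independent, and those named here were chosen after their values were seen. Around Gstt1 and Gstt3, Ddt, a tautomerase gene 0.7 kb from Gstt3, was 4.06 to 7.68 CPM in group 1 and 10.8 to 15.3 in group 2. Derl3, 94.8 kb from Gstt1, was 0.151 to 0.661 CPM in group 1 and 0.684 to 1.51 in group 2. Cabin1, Mif and Smarcb1 in the same stretch overlapped between the groups. At Cd34, the antisense gene Gm16897, which overlaps it and has 188 counts over 64 libraries, was 0.0135 to 0.0882 CPM against 0.167 to 0.349, and A330023F24Rik, 15.1 kb away, was 0.0877 to 0.225 CPM against 0.290 to 0.646. The other 5 neighbors that were apart lay 25.5 to 2144.4 kb from the member. Dlg5 (2144.4 kb from Zfp503), Gm15682 (147.1 kb from Slc4a4) and 2310035C23Rik (25.5 kb from Tnfrsf11a) differed in the same direction as the member. Their log2 fold changes were −0.51, 0.66 and −0.36. Gm6158 (0.50, 2080.1 kb from Zfp503) and Gm14636 (−0.79, 938.5 kb from Slc9a7) differed in the opposite direction. Around Pag1, Nipsnap1 and Tpd52l1, 0 of 6 neighbors each were apart. The libraries are strand-specific, but whether the counting used strand is not given in the sources used here, so Gm16897 and Cd34 are uncertain where they overlap.

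**Figure D5:**
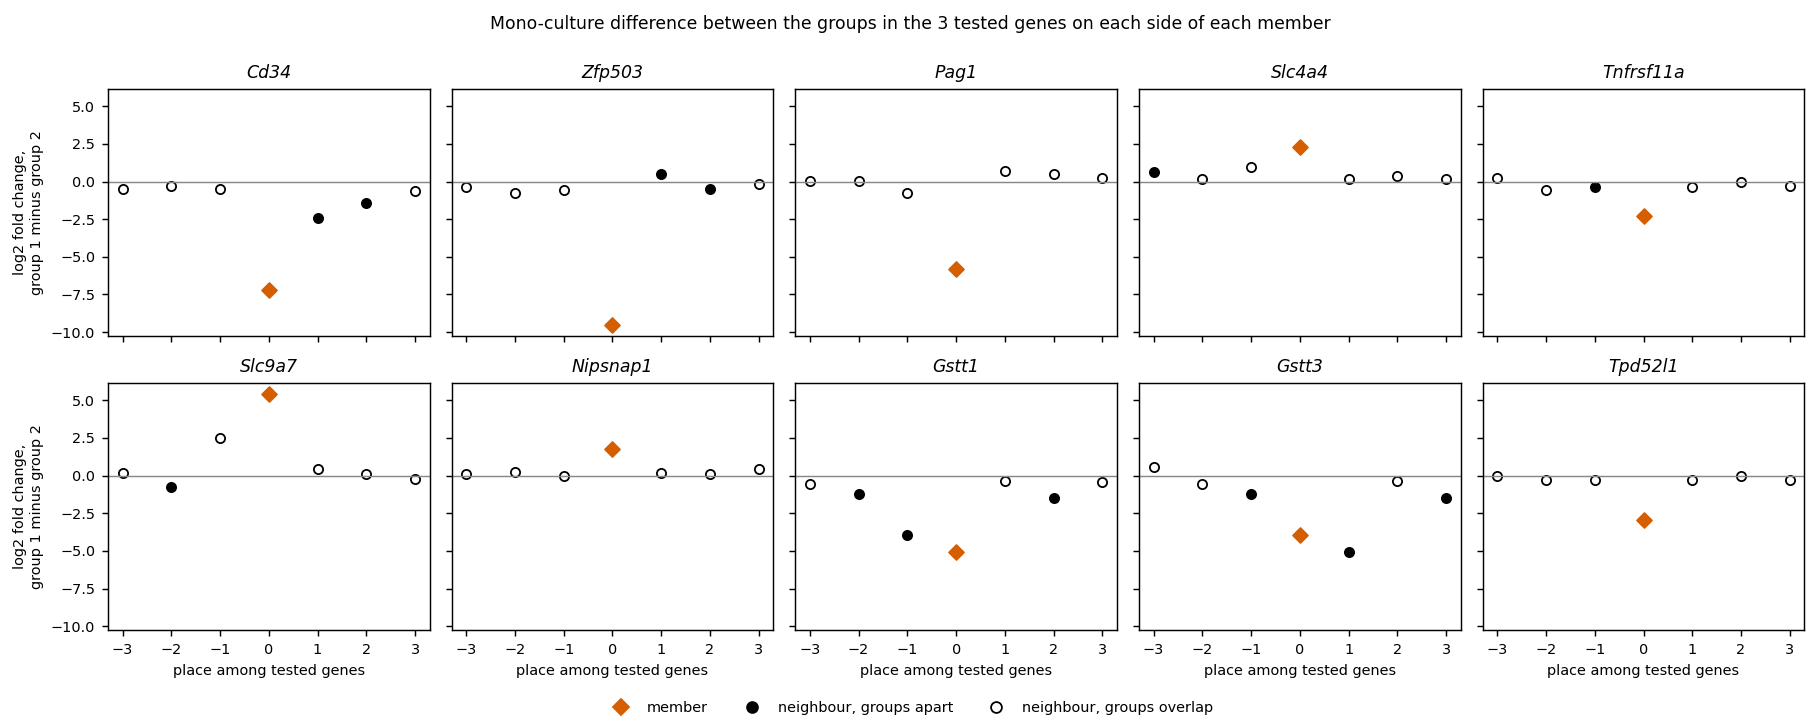
Log2 fold change, group 1 minus group 2, in mono-culture for each of the 10 genes (diamond) and the 3 tested genes on each side in genome order, with filled circles where the clone means of the groups do not overlap. Filled circles stand on the same side of 0 as the member beside Gstt1, Gstt3, Cd34, Slc4a4 and Tnfrsf11a, on both sides beside Zfp503, on the opposite side beside Slc9a7, and nowhere beside Pag1, Nipsnap1 or Tpd52l1.

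The genes most like each member were taken from Pearson's r of log2 CPM over the 16 sums of line and culture, among 14478 genes. These sums share their lines, and the members were chosen for a pattern over lines, so r is a description. Cd34 was followed best by 9130206I24Rik (r = 0.895) and Amigo2 (0.867), a cell adhesion gene that was at most 0.085 CPM in group 1 clones, 0.477 to 6.92 in group 2 and 4.56 in KPC1 in mono-culture. Zfp503 was followed by Unc5c (0.855), a netrin receptor, and Arhgap31 (0.850), which like Zfp503 were low in KPC1, at 0.209 and 0.812 CPM. For Pag1 they were Gm26854 (0.870) and Noxo1 (0.861), and for Tnfrsf11a Gigyf2 (0.923) and Prrc2c (0.923).

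Slc9a7 was followed by Insm1 (0.914), a neuroendocrine transcription factor at 0.176 to 30.6 CPM in group 1, at most 0.152 in group 2 and 4.57 in KPC1, and by Eif2s3y (0.887). Nipsnap1 was followed by Nr2f6 (0.934) and Gm12250 (0.930), Slc4a4 by 1700029J07Rik (0.894) and Cul4a (0.883), and Tpd52l1 by Fads3 (0.869) and Sap18 (0.848). Gstt1 was followed by Tmtc2 (0.906) and 9130206I24Rik (0.902), whereas Gstt3 was followed by Wdfy2 (0.939) and Aida (0.915), so the adjacent paralogs had no gene in common here. Between members, r was 0.903 for Cd34 and Pag1, 0.901 for Slc4a4 and Slc9a7, −0.906 for Tnfrsf11a and Nipsnap1, and 0.594 for Gstt1 and Gstt3.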

How the data were processed

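RNA was measured by polyA-selected, strand-specific sequencing with paired reads of 76 bases in 64 libraries, 4 for each of 8 lines in mono-culture and in co-culture. The deposited table of counts per gene and the deposited table of RPKM were made by the authors. The submitters' processing notes name featureCounts, edgeR and mm10, and their versions and the aligner are not given in the sources used here. Columns that could not be mapped to a sample numbered 0. Library totals had a median of 15648009.5 counts, and 13527 of 39017 genes had no count.

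The 10 genes, the gene lists and the tests were chosen with earlier results of these data known. Counts were summed over the 4 libraries of a line and culture, scaled by TMM and tested with edgeR's quasi-likelihood test, 3 clones against 4 in each culture and, with the line as covariate, co-culture against mono-culture over 8 lines. Within lines, 4 libraries were tested against 4. P-values were adjusted by Benjamini-Hochberg over all genes tested, and an adjusted p under 0.1, the study's threshold, was called. Genes were kept by edgeR's filter on low counts. Log2 CPM values used a prior count of 0.5. A group's values were read as apart when clone means of the groups did not overlap. A count of 0 allows up to 3 counts, and Poisson intervals are exact at 95%. Named besides the 10 genes were up to 4 called genes per list by smallest p in the culture response, list genes called between groups, the 2 genes most alike to each member, and markers that define a cell type or exceed 1 CPM in a line. Exceptions are marked in the text. Some items of the genotype and of the marker lists are not reported here.

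Alternatives were DESeq2, RLE scaling, other filters, limma on RPKM, a threshold of 0.05, single lines or replicates left out, a replicate block (same-numbered libraries of clone N deviated together, r 0.189 to 0.261, and the labels give no shared batch), and the libraries of the series of 43 sample numbers alone. Each test was checked on simulated data with planted changes. The simulated clones and lines had no other built-in differences, so the check does not measure error rates under the real spread between clones. Versions were R 4.3.3, edgeR 4.0.16, limma 3.58.1, DESeq2 1.42.0, Python 3.11.15, pandas 2.3.3, numpy 2.4.6 and matplotlib 3.10.9.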

Additional observations from a re-analysis of the deposited data

Results flagged for a closer look

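Of 179 groups of 4 libraries or clones, 10 had a highest or lowest value far from the rest by Dixon's test at 95%. For normal values chance gives 1 in 20, but levels with many zeros are not normal, so that rate is only a rough guide. Where all other libraries had 0 counts, the test flags any count, as for Gstt1 in H and Zfp503 in E in mono-culture. For Gstt1 in clone H, replicate 1 was at 0.486 CPM in co-culture beside 1.63 to 1.81 in the others, and at 0.125 CPM in mono-culture, 2 counts, beside 0. Gstt3 in clone K was 0.781 CPM in replicate 3 of co-culture (others 1.53 to 1.68) and 3.34 CPM in replicate 4 of mono-culture (others 1.10 to 1.45). Nipsnap1 in clone K was 23.1 CPM in replicate 3 of co-culture (others 20.8 to 21.2) and 18.6 CPM in replicate 1 of mono-culture (others 13.3 to 13.7). Slc9a7 was 0.487 CPM, 7 counts, in replicate 4 of clone K in mono-culture (others 0.0645 to 0.0691). Tpd52l1 was 2.19 CPM in replicate 3 of clone E in mono-culture (others 0.862 to 1.09), and Zfp503 was 0.142 CPM, 3 counts, in replicate 1 of the same clone (others 0). Among the group 2 clones in co-culture, clone N stood apart for Gstt3 at 5.27 CPM, beside 0.970 to 1.38 in the other 3.

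For 2 genes the log2 fold changes of the group 1 clones all had one sign and those of the group 2 clones the other, though not all passed their test. The mean log2 fold change of Pag1 was 2.88 higher in group 1 than in group 2, with 3 of 3 clones above 0 against 0 of 4. That of Slc4a4 differed by −0.746, with 0 of 3 above 0 against 4 of 4. The signs rest in part on values near 0. Pag1 in V was 0.03 and became −0.27 without replicate 4 and −0.15 within the series of 43 sample numbers. Slc4a4 was called in no group 1 clone, and its sign turned in V without replicate 1 (0.0491) and within that series (0.149), and in M without replicate 3 (−0.20). These fold changes also use the mono-culture libraries that chose the genes. A rise where a gene was picked as low, and a fall where it was picked as high, are favored by that choice. Whether these responses differ between the groups was not tested.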

How the results depend on the processing

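In co-culture the number of genes called between the groups was 1 by edgeR, 193 by DESeq2 and 5 by limma on log2(RPKM + 1) with no filter, and leaving out single clones gave 0 (without V) to 19 (without E), with 2 without T. In mono-culture it was 0 by edgeR, 117 by DESeq2, 1 with no filter on low counts, 1 by limma on log2(RPKM + 0.1) and 2 within the series of 43 numbers, and 0 to 217 with single clones left out (217 without E, 1 without M). The cause was not tested. The culture response over 8 lines stayed within 1.5 times its 7909 calls under every alternative run. With single replicates left out, the 2894 calls within clone K ranged from 1851 (without replicate 4) to 2558, with 1920 without replicate 3, and the 5495 within clone M from 3485 (without replicate 4) to 5002. No result that passed its test reversed. Of the values for single genes, 185 in the culture response over 8 lines and 191 in the co-culture group contrast kept their side of the threshold. In these 2 comparisons together, 14 values passed it only under an alternative and 20 no longer did. With RPKM in place of CPM, whether clone means were apart changed for none of the 10 genes in either culture. Same-numbered libraries of a line correlated in their deviations at −0.078 to 0.261, over 0.1 in 16 of 32 pairs, and 24 of 32 correlated best with their own number. Only in clone N were all 4 pairs over 0.1, so the labels' numbers were not taken to pair the samples of the other 7 lines. With the replicate number as a block, 5674 genes were called in N against 5285 without it, and no member's call changed there. In the other lines the block gave 8912 calls in E and 3272 in K, and over all lines 44 of the 80 member responses against 43, Tpd52l1 in H being lost (edgeR adjusted p = 0.11) and Slc4a4 in H (0.0783) and Nipsnap1 in KPC1 (0.0952) gained. Without single replicates, 35 to 41 were called. Genes at a few counts per clone, as Zfp503, Pag1 and Gstt1 in group 1 mono-culture, have fold changes that depend on the prior count.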
